A study of Mus musculus with 8 samples.

Results

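Malat1, Neat1, Meg3, Rian, Mirg, Kcnq1ot1, Miat and Snhg11 are 8 long noncoding RNAs known mainly from the cell nucleus. They were taken by symbol from the count tables of mouse neural retinas, in which they are 8 of 43472 symbols, and each of them had reads in every library. The tested retinas were those of 4 Mfp2-/- mice, which lack multifunctional protein 2 (the product of Hsd17b4), a central enzyme of peroxisomal β-oxidation. The controls were 3 Mfp2+/+ mice and 1 Mfp2+/- mouse (control replicate 2). All 8 mice were 3 weeks old (postnatal day 21) and on a C57Bl6/J background. The deletion is present in every cell of the mouse, not in the retina alone, and the knockout mice came from crosses of heterozygous parents. Both retinas of a mouse were pooled into 1 library. The labels give no sex.

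Libraries held 1895485 to 2826553 reads in genes in Mfp2-/- retinas and 2340974 to 3226187 in control retinas. Hsd17b4 had 0 or 1 read in each Mfp2-/- library, against 20 to 78 reads in control libraries. Retinal markers went with the labelled tissue: all 20 rod markers were detected in both groups, and all 20 were downregulated in Mfp2-/- retinas (summed level 2413 to 3478 CPM, counts scaled to library size, against 60022 to 69687 CPM in controls). Of 12516 genes tested, 13.8% were upregulated and 13.2% downregulated in Mfp2-/- retinas (edgeR quasi-likelihood test, adjusted p under 0.05), 27% in all. From counts of bulk tissue alone, fewer cells of a type and less RNA per cell cannot be told apart. By histology at this age, the paper reported a normal number of photoreceptor nuclei, and more apoptotic ones in Mfp2-/- retinas.

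Most transcripts are spliced and exported, whereas many long noncoding RNAs stay and act in the nucleus. Malat1 resides in nuclear speckles, the stores of splicing factors, and Neat1 is the scaffold of paraspeckles, bodies that hold back proteins and edited RNAs. Meg3, Rian and Mirg are transcribed from the maternal copy of the imprinted Dlk1-Dio3 domain. Kcnq1ot1 comes from the paternal copy of the Kcnq1 domain and silences its neighbours on that chromosome. Miat, also named Gomafu or RNCR2, was described in retinal precursors and neurons and binds splicing factors. Snhg11 hosts small nucleolar RNAs in its introns and is abundant in neurons.

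The libraries were primed with oligo-dT and sequenced from the 3′ end, so a nuclear RNA is counted where a poly(A) tail, or a run of A within the RNA, lets the primer bind. The ends of 7 of the members are therefore shown, from GENCODE gene models on the mouse genome GRCm38, as the last 60 bases of the longest annotated transcript (for Neat1 also of the short transcript). The capitals mark the poly(A) signals AATAAA and ATTAAA, searched on the transcribed strand.
Malat1 end (chr19:5795690-5795749, minus strand): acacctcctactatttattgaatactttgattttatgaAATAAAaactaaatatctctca
Neat1 long form end (chr19:5824708-5824767, minus strand): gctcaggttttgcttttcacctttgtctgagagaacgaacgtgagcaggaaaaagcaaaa
Neat1 short form end (chr19:5842307-5842366, minus strand): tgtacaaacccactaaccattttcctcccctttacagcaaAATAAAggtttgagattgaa
Meg3 end (chr12:109571667-109571726, plus strand): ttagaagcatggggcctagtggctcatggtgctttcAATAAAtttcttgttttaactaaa
Rian end (chr12:109654950-109655009, plus strand): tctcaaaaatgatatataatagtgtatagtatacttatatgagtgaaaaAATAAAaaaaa
Mirg end (chr12:109749399-109749458, plus strand): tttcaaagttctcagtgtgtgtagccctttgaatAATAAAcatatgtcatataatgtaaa
Kcnq1ot1 end (chr7:143203458-143203517, minus strand): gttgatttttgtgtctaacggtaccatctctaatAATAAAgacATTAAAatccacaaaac
Miat end (chr5:112213228-112213287, minus strand): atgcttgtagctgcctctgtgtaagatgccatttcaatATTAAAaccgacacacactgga

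A signal lay in this window in 7 of the 8 longest transcripts (Snhg11, which was not printed, included), against 39.21% of the longest transcripts of all genes and 75.24% of those of at least 5000 bases. The exception was the long form of Neat1, of 20771 bases, around which paraspeckles are built and whose end is made by RNase P cleavage rather than polyadenylation. The short form, of 3004 bases, has the signal. No match says only that these letters are not in the window.

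Runs of at least 10 A occurred in the longest transcripts of 4 of the 8 RNAs, against 9.78% of the longest transcripts of all genes and 36.55% of those of at least 5000 bases. For 3 of them, Malat1, Rian and Kcnq1ot1, the longest run, in capitals with 20 bases on either side, is shown because a run of A inside a transcript can take the primer.
Malat1 A run (chr19:5795968-5796019, minus strand): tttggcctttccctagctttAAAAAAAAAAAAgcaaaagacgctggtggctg
Rian A run (chr12:109652209-109652263, plus strand): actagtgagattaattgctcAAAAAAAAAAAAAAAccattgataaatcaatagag
Kcnq1ot1 A run (chr7:143226925-143227005, minus strand): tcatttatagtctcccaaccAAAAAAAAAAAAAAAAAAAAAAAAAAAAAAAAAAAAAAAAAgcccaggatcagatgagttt

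The Malat1 run of 12 A ends 298 bases before the annotated end and is followed directly by the sequence gcaaaa and the tRNA-like RNA (mascRNA) that RNase P releases from Malat1. It belongs to the triple helix that protects the cleaved Malat1 end. Kcnq1ot1 is annotated as 1 exon of 93092 bases (chr7:143203458-143296549, minus strand, antisense to Kcnq1). Only 2 genes have a longer exon, and the transcript holds 10 runs of at least 10 A, the longest of 41. Malat1 (chr19:5795690-5802672, minus strand, 6983 bases) and Neat1 (chr19:5824708-5845478, minus strand) are also annotated as single exons and lie next to each other. Meg3 (chr12:109541001-109571726), Rian (chr12:109603940-109661716) and Mirg (chr12:109729764-109749460) follow one another on the plus strand. Miat lies at chr5:112213228-112229395 on the minus strand and Snhg11 at chr2:158375638-158386145 on the plus strand. GENCODE classes Snhg11 as protein coding, and RefSeq as a long noncoding RNA. Genes annotated across Meg3 (Gm26906) and Miat (Gm26953) on the other strand had 0 reads in all 8 libraries, and Kcnq1 had 0 to 3. Nothing in the sources used here says how strand was treated in the counts, and reads of a member and of a gene on the other strand cannot be told apart.

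A second number of each library goes with these RNAs. HTSeq, the counting program, sets aside the uniquely aligned reads that fall in no annotated gene feature. The feature type that was counted is not given in the sources used here. These reads, called reads outside genes throughout, may therefore include reads in introns or on the other strand of genes. As a percentage of the reads in genes plus these, the reads outside genes made up 45.4%, 21.0%, 27.7% and 45.8% in Mfp2-/- replicates 1 to 4, against 43.8%, 44.7%, 36.4% and 46.4% in control replicates 1 to 4. The groups averaged 35.0 ± 12.6% and 42.8 ± 4.40% (SD, n = 4 each) in Mfp2-/- and control retinas, a difference of -7.87 percentage points that did not exceed the spread between libraries (two-sided exact permutation test, p = 0.371). Mfp2-/- replicates 2 and 3 stood apart from the other 6 libraries, and without them the difference was 2.74 percentage points. These 2 libraries also had the largest shares of reads that did not align, 22.1% and 19.4%, against 17.8% to 18.1% in the other Mfp2-/- libraries and 15.3% to 16.9% in controls. The 8 members together took 2.24%, 0.668%, 0.980% and 2.57% of the reads in genes of Mfp2-/- replicates 1 to 4, against 1.91%, 1.77%, 1.43% and 1.68% in controls 1 to 4. The members' results are therefore given with and without these 2 libraries, and the counts for gene lists likewise.

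**Figure D1:**
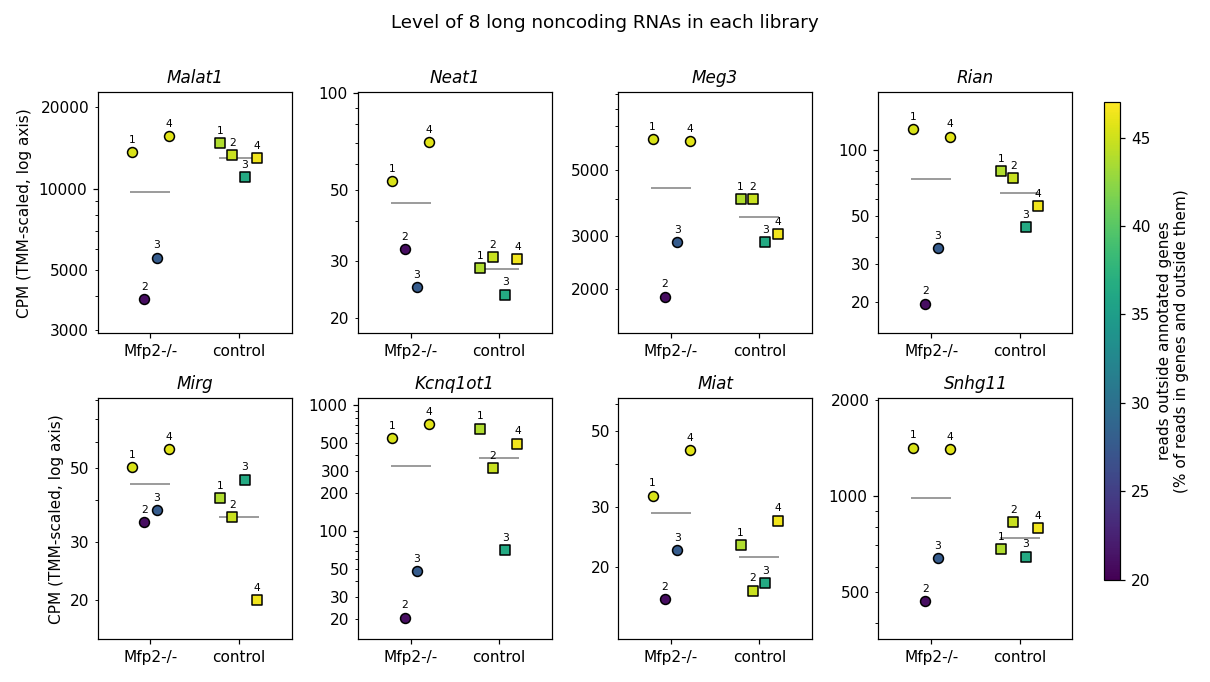
Level of each of the 8 RNAs (CPM, log axis) in every library, with Mfp2-/- retinas (circles) left of control retinas (squares); digits are replicate numbers, grey bars group means, and the color gives the share of reads outside annotated genes. In all 8 panels the groups overlap, and the dark points of Mfp2-/- replicates 2 and 3 lie below replicates 1 and 4.

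Malat1 had 13607, 3916, 5568 and 15655 CPM in Mfp2-/- replicates 1 to 4, against 14673, 13301, 11012 and 12925 CPM in control replicates 1 to 4. The controls lay close together, whereas Mfp2-/- replicates 2 and 3 fell below every control and replicate 4 above every control. The means were 9686 ± 5810 CPM in Mfp2-/- and 12978 ± 1510 CPM in control retinas (SD, n = 4 each), and the log2 fold change of -0.42 ± 0.37 (SE) did not pass the edgeR test (adjusted p = 0.428, 95% interval -1.34 to 0.50).

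Neat1, the neighbour of Malat1, had 152, 65, 75 and 193 reads in Mfp2-/- replicates 1 to 4, against 79, 69, 74 and 88 reads in controls 1 to 4. This corresponded to 53.4, 32.8, 25.0 and 70.4 CPM in Mfp2-/- retinas and 28.5, 31.0, 23.7 and 30.4 CPM in control retinas. Mfp2-/- replicates 1, 2 and 4 exceeded every control, and replicate 3 lay within them. Neat1 came closest of the 8 to the threshold, with a log2 fold change of 0.68 ± 0.29 (SE) and an adjusted p of 0.102 in the edgeR test. It passed when Mfp2-/- replicate 2 (0.80, adjusted p = 0.0491) or replicate 3 (0.89, adjusted p = 0.0300) was left out, and lay at 0.41 (adjusted p = 0.241) without Mfp2-/- replicate 4.

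The reads of Neat1 per read of Malat1, a ratio within 1 library that no scaling between libraries touches, separated the groups. Neat1 amounted to 0.392%, 0.837%, 0.449% and 0.450% of Malat1 in Mfp2-/- replicates 1 to 4, against 0.194%, 0.233%, 0.215% and 0.235% in controls 1 to 4. The log2 ratio differed by 1.21 (p = 0.0286 in a two-sided exact permutation test, which 4 against 4 libraries cannot undercut), and adjusted over the 5 ratios examined it missed the threshold (adjusted p = 0.143). Without Mfp2-/- replicates 2 and 3 the difference was 0.94, and over the libraries left out one at a time it ranged over 0.97 to 1.34. The share of all genes whose ratio to Malat1 separates the groups was not computed. Malat1 itself differed by a log2 of 0.01 per read outside genes. On that scale 13.1% of all genes were higher in every Mfp2-/- library than in every control, and the median log2 difference was 0.63. Of 9 tested genes that flank both RNAs, Frmd8, which carries a FERM domain, was upregulated (log2 fold change 1.09, adjusted p = 0.0331 by edgeR) and none was downregulated. Over all genes tested, 13.8% were upregulated and 13.2% downregulated. Cdc42ep2, an effector of Cdc42, had a log2 fold change of -0.97 (adjusted p = 0.0575). Frmd8 did not pass without Mfp2-/- replicates 2 and 3 (0.80, adjusted p = 0.167), and 0 of 9 were then called, against 26.1% of all genes.

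Meg3 had 6345, 1881, 2870 and 6247 CPM in Mfp2-/- replicates 1 to 4, against 3989, 3983, 2860 and 3038 CPM in controls 1 to 4. Replicates 1 and 4 of the Mfp2-/- retinas exceeded every control, replicate 3 lay close to the lowest control and replicate 2 was the lowest library. Means of 4336 ± 2300 CPM in Mfp2-/- and 3467 ± 603 CPM in control retinas (SD, n = 4 each) gave a log2 fold change of 0.32 ± 0.34 (SE, adjusted p = 0.512 by edgeR). Rian, which hosts the box C/D small nucleolar RNAs of the same domain, had 125, 19.7, 35.4 and 116 CPM in Mfp2-/- replicates 1 to 4, against 80.6, 74.5, 44.2 and 55.3 CPM in controls 1 to 4. Its libraries split similarly to those of Meg3, but here with both high Mfp2-/- libraries above and both low ones below every control, and a log2 fold change of 0.23 ± 0.48 (SE, adjusted p = 0.754). Mirg, the host of a large cluster of microRNAs, had 50.2, 34.3, 37.4 and 56.9 CPM in Mfp2-/- replicates 1 to 4, against 40.5, 35.5, 46.1 and 20.1 CPM in controls 1 to 4. In Mirg it was control replicate 4 that was lowest, and the log2 fold change was 0.33 ± 0.25 (SE, adjusted p = 0.349).

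Within a library, Rian amounted to 1.05% to 1.97% of the reads of Meg3 in Mfp2-/- retinas and 1.54% to 2.02% in controls, and Mirg to 0.792% to 1.82% in Mfp2-/- retinas and 0.660% to 1.61% in controls. The log2 ratios differed by -0.29 for Rian (exact permutation test, p = 0.286) and by 0.21 for Mirg (p = 0.600), both with an adjusted p of 0.600 over the 5 ratios. Over the 8 libraries the log2 CPM of Meg3 went with that of Rian (Pearson r = 0.97) more closely than with that of Mirg (r = 0.56). These values share the depth and composition of 8 libraries and are given as a description. Of the other genes of the Dlk1-Dio3 region, 5 were tested and Ppp2r5c, a regulatory subunit of protein phosphatase 2A, was downregulated (log2 fold change -0.83, adjusted p = 0.00169 by edgeR; -0.70, adjusted p = 0.00141 without Mfp2-/- replicates 2 and 3). Dlk1, Rtl1 and Dio3, the paternally expressed genes of the domain, did not pass the filter on low counts. In a wider list of 16 tested imprinted genes, 6 were upregulated and 1 was downregulated, against 13.8% and 13.2% of all genes. The median log2 fold change of these 16 was 0.42, against -0.0040 over all genes tested. Among them, Gnas, the stimulatory G protein α subunit, averaged 1347 ± 201 CPM in Mfp2-/- and 868 ± 91.0 CPM in control retinas (log2 fold change 0.63, adjusted p = 0.0087), Nnat (neuronatin) rose by 0.66 (adjusted p = 0.0190), Snrpn by 0.59 (adjusted p = 0.0217), and Mest had a log2 fold change of -0.61 (adjusted p = 0.0113). Without Mfp2-/- replicates 2 and 3, 2 of the 16 were upregulated (Gnas at 0.47, adjusted p = 0.0185, and Plagl1), 1 was downregulated (Mest), and Nnat (0.44, adjusted p = 0.0636) and Snrpn (0.40, adjusted p = 0.0544) did not pass. The same fit called 13.3% of all genes upregulated and 1667 of 13044 downregulated.

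Kcnq1ot1 varied far more than any other member. It had 1565, 41, 146 and 1932 reads in Mfp2-/- replicates 1 to 4, against 1812, 710, 220 and 1435 reads in controls 1 to 4. In CPM these were 550, 20.7, 48.7 and 705 in Mfp2-/- retinas and 655, 319, 70.4 and 496 in control retinas. The highest library exceeded the lowest 34.1-fold among Mfp2-/- retinas and 9.29-fold among control retinas. Only 0.0400% of the tested genes had a larger range among the Mfp2-/- libraries and 0.0479% among the controls. The low libraries were Mfp2-/- replicates 2 and 3 and control replicate 3, which are also the 3 with the lowest shares of reads outside genes. With this spread the log2 fold change of -0.22 ± 0.93 (SE) had a 95% interval of -2.49 to 2.06 (adjusted p = 0.886 by edgeR), so that a severalfold change in either direction was not detectable in these libraries. Of 6 tested genes of the Kcnq1 domain, Cd81, a tetraspanin, was upregulated (log2 fold change 0.45, adjusted p = 0.0470), but not without Mfp2-/- replicates 2 and 3 (0.26, adjusted p = 0.155). The share upregulated over all genes tested in all 8 libraries was 13.8%. Cdkn1c, a cyclin-dependent kinase inhibitor silenced by Kcnq1ot1 on the paternal chromosome, had 51.0 ± 16.5 CPM in Mfp2-/- and 45.4 ± 7.88 CPM in control retinas (SD, n = 4 each; log2 fold change 0.16, adjusted p = 0.627).

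Miat had 92, 32, 67 and 120 reads in Mfp2-/- replicates 1 to 4, against 64, 38, 56 and 79 reads in controls 1 to 4. The levels were 32.3, 16.1, 22.4 and 43.8 CPM in Mfp2-/- retinas and 23.1, 17.1, 17.9 and 27.3 CPM in control retinas. Mfp2-/- replicates 1 and 4 were again highest and replicate 2 lowest, with a log2 fold change of 0.43 ± 0.29 (SE, adjusted p = 0.291 by edgeR). Of 5 tested splicing factors that bind Miat, Srsf1 was downregulated, and Celf4 (log2 fold change 0.37, adjusted p = 0.0749) and Celf3 (0.27, adjusted p = 0.0950) did not pass. Among all genes tested, 13.2% were downregulated. When Mfp2-/- replicates 2 and 3 were left out, Srsf1 did not pass (log2 fold change -0.43, adjusted p = 0.0685), and Celf4 and Qk were called upward. That fit called 13.3% of all genes upward.

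Snhg11 had 1420, 469, 639 and 1409 CPM in Mfp2-/- replicates 1 to 4, against 683, 828, 646 and 792 CPM in controls 1 to 4. Replicates 1 and 4 of the Mfp2-/- retinas lay above the highest control, and replicates 2 and 3 lay below the lowest. The log2 fold change was 0.42 ± 0.32 (SE, adjusted p = 0.357 by edgeR). None of 9 other tested host genes of small nucleolar RNAs was called in either direction, against 27% of all genes tested. Their median log2 fold change was 0.02.

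Over all 8 libraries, all 8 RNAs passed the filter on low counts, 6 had a positive and 2 a negative log2 fold change, and 0 of 8 were called, against 27% of all genes tested. The unadjusted p was under 0.05 for 1 of 8 (Neat1), and neither DESeq2 nor limma-voom called any of them. The groups overlapped in CPM for all 8, whereas 15.1% of the tested genes were higher and 15.8% lower in every Mfp2-/- library than in every control, 30.9% in all. Mfp2-/- replicates 2 and 3 were the 2 lowest of the 8 libraries for Malat1, Kcnq1ot1, Rian and Snhg11, 4 of 8, against 18.6% of the genes tested.

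Levels were then correlated with the share of reads outside genes, a comparison added after seeing the data. Across the 8 libraries, log2 CPM and the share had a Pearson r of 0.98 for Malat1 (permutation p = 0.00196, adjusted over the 8 relations 0.00522), 0.96 for Kcnq1ot1 (p = 0.00136, adjusted 0.00522), 0.90 for Rian (p = 0.00164, adjusted 0.00522) and 0.79 for Meg3 (p = 0.0188, adjusted 0.0376). Snhg11 reached 0.74 (adjusted p = 0.0521), and Miat (0.58), Neat1 (0.41) and Mirg (0.06) did not pass. By rank, Spearman's rho was 0.69, 0.76, 0.71, 0.69 and 0.83 for Malat1, Kcnq1ot1, Rian, Meg3 and Snhg11, with permutation p of 0.0694, 0.0368, 0.0576, 0.0694 and 0.0154, and none passed after adjustment (lowest adjusted p = 0.0925). A higher r with the share than that of Malat1 was found for 0.639% of the tested genes, and than that of Kcnq1ot1 for 1.98%. For Rian this was 6.76%, for Meg3 14.2%, for Snhg11 16.6%, for Miat 24.2%, for Neat1 32.4% and for Mirg 47.4%. The libraries with the most extreme shares were Mfp2-/- replicates 2 and 3. Without these, r over the other 6 libraries was 0.92 for Kcnq1ot1, 0.75 for Malat1, 0.64 for Rian, 0.54 for Meg3, 0.56 for Snhg11, 0.58 for Miat, 0.57 for Neat1 and -0.28 for Mirg. The r of Neat1 was higher without these 2 libraries, and that of Miat was nearly the same. Within a genotype there are 4 libraries, too few for a correlation.

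**Figure D2:**
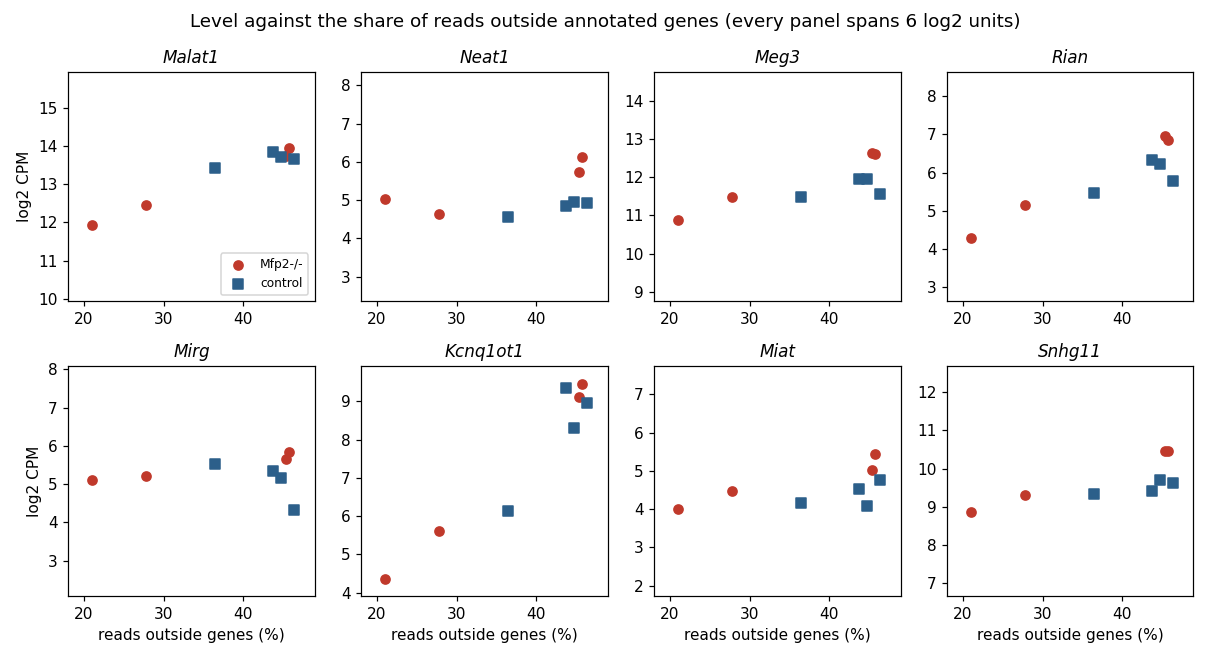
Level (log2 CPM) of each RNA against the share of reads outside annotated genes (%), with Mfp2-/- retinas as red circles and control retinas as blue squares; every panel spans the same 6 log2 units. Kcnq1ot1 is steepest, Malat1 of both genotypes lies on a similar course, Mirg is nearly level, and in Meg3 and Snhg11 the Mfp2-/- libraries with shares near 45% lie above the controls with such shares.

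Each member was also counted per 1000 reads outside genes of the same library. Malat1 then amounted to 16.5, 15.4, 15.4 and 19.6 in Mfp2-/- replicates 1 to 4, against 17.9, 15.6, 18.6 and 14.4 in controls 1 to 4. On this scale the low values of Mfp2-/- replicates 2 and 3 lay within the range of the other libraries, the groups overlapped, and the log2 difference was 0.01 (exact permutation test, p = 1). Meg3 amounted to 7.72, 7.41, 7.93 and 7.81 in Mfp2-/- replicates 1 to 4, against 4.86, 4.68, 4.83 and 3.39 in controls 1 to 4. Every Mfp2-/- library lay above every control, including replicates 2 and 3 (log2 difference 0.81, exact permutation p = 0.0286, adjusted over the 8 RNAs 0.0571). Snhg11 amounted to 1.73, 1.85, 1.77 and 1.76 in Mfp2-/- replicates 1 to 4, against 0.831, 0.973, 1.09 and 0.885 in controls 1 to 4, and again the groups did not overlap (log2 difference 0.92, p = 0.0286, adjusted 0.0571, exact permutation test).

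Neat1 amounted to 0.0649 to 0.129 in Mfp2-/- and 0.0340 to 0.0400 in control retinas (log2 difference 1.22), and Miat to 0.0393 to 0.0636 in Mfp2-/- and 0.0200 to 0.0305 in control retinas (1.00), both without overlap and with the same p-values as Meg3. Rian (0.0775 to 0.152 in Mfp2-/- and 0.0618 to 0.0981 in control retinas, log2 difference 0.52, exact permutation p = 0.143) and Mirg (0.0611 to 0.135 in Mfp2-/- and 0.0224 to 0.0779 in control retinas, 1.02, p = 0.0857) overlapped. Kcnq1ot1 still spread widely, over 0.0814 to 0.882 in Mfp2-/- and 0.119 to 0.797 in control retinas (log2 difference -0.40, exact permutation p = 0.800). Thus 4 of 8 RNAs were higher in every Mfp2-/- library than in every control and 0 of 8 lower, against 13.1% and 4.05% of all genes tested on the same scale. No p can fall below 0.0286 with 4 libraries in each group, and none of the 8 passed 0.05 after adjustment. The ratio moves with its denominator as well as with the RNA: the median log2 difference over all 12516 genes was 0.63. Without Mfp2-/- replicates 2 and 3 the log2 differences were 0.12 for Malat1, 0.82 for Meg3, 0.89 for Snhg11, 1.06 for Neat1 and 0.78 for Miat.

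**Figure D3:**
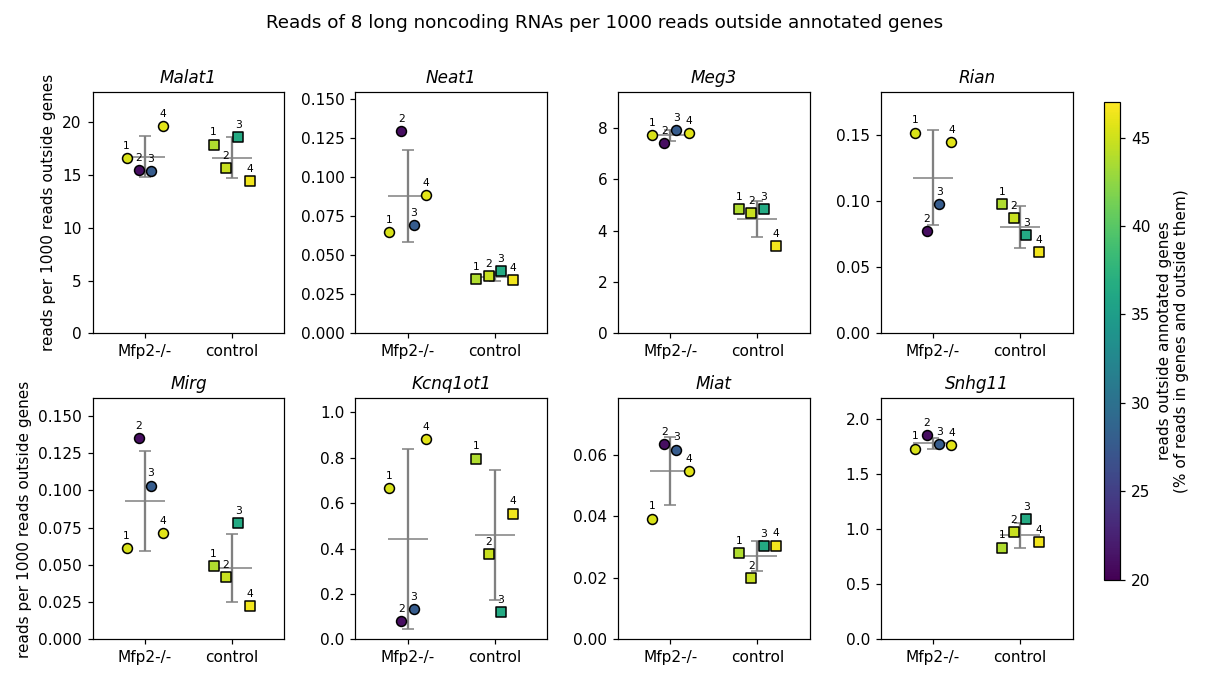
Reads of each RNA per 1000 reads outside annotated genes (linear axis from 0) in Mfp2-/- retinas (circles, left) and control retinas (squares, right); digits are replicate numbers, grey bars the mean ± SD (n = 4), and the color the share of reads outside genes. Meg3, Snhg11, Neat1 and Miat separate the groups, Malat1 lies between 14.4 and 19.6 in all libraries, and Kcnq1ot1 remains spread.

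With the share of reads outside genes as a covariate in the edgeR fit, 5 of 8 RNAs were upregulated in Mfp2-/- retinas and 0 downregulated, against 17.1% of all genes upregulated in that fit. These were Neat1 (log2 fold change 0.96 ± 0.17, SE, adjusted p = 0.000310), Snhg11 (0.75 ± 0.11, adjusted p = 2.19e-05), Miat (0.72 ± 0.19, adjusted p = 0.00571), Meg3 (0.67 ± 0.12, adjusted p = 0.000233) and Rian (0.67 ± 0.15, adjusted p = 0.00257). Malat1 was at -0.06 ± 0.11 (adjusted p = 0.694), Kcnq1ot1 at 0.47 ± 0.27 (adjusted p = 0.187) and Mirg at 0.43 ± 0.22 (adjusted p = 0.131). Leaving out Mfp2-/- replicates 2 and 3, which puts 2 libraries against 4, gave the same 5 calls, against 13.3% of all genes upregulated, with log2 fold changes of 1.12 for Neat1, 0.94 for Snhg11, 0.92 for Rian, 0.86 for Meg3 and 0.82 for Miat (adjusted p of 0.000275, 0.000132, 0.00252, 0.000905 and 0.0128). Malat1 stood at 0.17 (adjusted p = 0.416) in that fit. The 2 libraries left out are both Mfp2-/-, have the lowest shares, and were the 2 lowest for Malat1, Kcnq1ot1, Rian and Snhg11. Leaving them out raises the Mfp2-/- mean of such RNAs by construction. The 2 fits rest on the same share, so neither is an independent check of the other. Leaving out control replicate 3 as well, a choice made after seeing the data, added Mirg (0.75, adjusted p = 0.0280) to these 5, against 12.9% of all genes. The share is a measurement of these same libraries and was lowest in 2 Mfp2-/- libraries, so the part of genotype and of library in it cannot be told apart by this design.

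**Figure D4:**
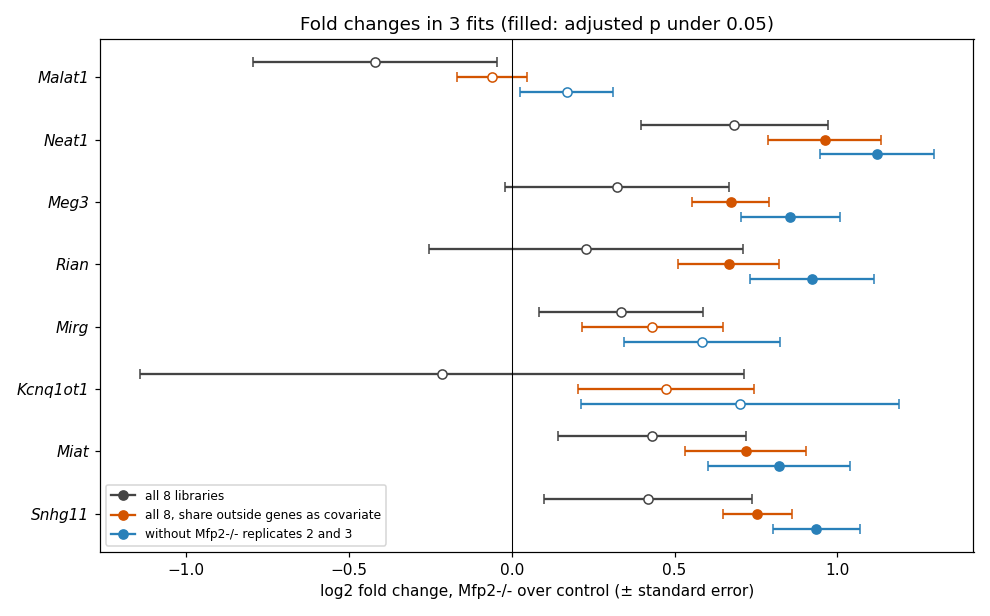
Log2 fold change of each RNA, Mfp2-/- over control (± SE), in the fit of all 8 libraries, with the share of reads outside genes as a covariate, and without Mfp2-/- replicates 2 and 3; filled points have an adjusted p under 0.05. No point is filled in the fit of all 8 libraries, and those of Neat1, Meg3, Rian, Miat and Snhg11 are filled in both others.

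The mRNAs of protein partners of these RNAs were read from the fit of all 8 libraries, as lists without a test of the list. Of 20 tested genes for proteins of nuclear speckles, the bodies that Malat1 marks, 6 were downregulated and 0 upregulated. Of all genes tested, 13.2% were downregulated and 13.8% upregulated. The median log2 fold change of the list was -0.42. Of single genes tested, 15.8% were lower in every Mfp2-/- library than in every control. No such share was computed for sums of 20 genes, which are an unlike measure. The summed level of the list was also lower in every Mfp2-/- library, at 3159 to 5475 CPM against 5875 to 6676 CPM in control retinas. Among them, Son, a scaffold of speckles, averaged 733 ± 196 CPM in Mfp2-/- and 1157 ± 116 CPM in control retinas (SD, n = 4 each; log2 fold change -0.66, adjusted p = 0.0261 by edgeR). The splicing factors Srsf1 (log2 fold change -0.70, adjusted p = 0.0256) and Srsf6 (-0.44, adjusted p = 0.0355) and the apoptosis-linked RNA-binding protein Acin1 (-0.45, adjusted p = 0.0351) were downregulated too. Of 19 tested genes for paraspeckle proteins, Hnrnph3, which encodes an RNA-binding protein, was downregulated (log2 fold change -1.24, adjusted p = 0.00256 by edgeR), and none was upregulated. The median of this list was -0.28. Dazap1 (-0.38, adjusted p = 0.0604), Srsf10 (-0.70, adjusted p = 0.0617) and Cpsf7 (-0.31, adjusted p = 0.0833) did not pass. Medians of both lists were nearer to 0 without Mfp2-/- replicates 2 and 3. Srsf10, for example, had 115, 44.9, 87.7 and 114 CPM in Mfp2-/- replicates 1 to 4, against 131 to 167 CPM in controls. Without these 2 libraries 3 of 20 speckle protein genes were downregulated (Acin1, Srsf3 and U2af2) and 0 upregulated, with a median log2 fold change of -0.21. Of 13044 genes tested in that fit, 1667 were downregulated and 1731 upregulated, 26.1% in either direction. Son (-0.37, adjusted p = 0.0598), Srsf1 and Srsf6 (-0.28, adjusted p = 0.109) did not pass. Hnrnph3 remained the 1 of 19 paraspeckle protein genes called (-0.89, adjusted p = 0.000811 by edgeR), with a median of -0.20.

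Of 26 other long noncoding RNAs that could be tested, 1 was upregulated and 3 were downregulated, against 13.8% and 13.2% of all genes. Their median log2 fold change was -0.02. Vax2os, transcribed opposite the retinal homeobox gene Vax2, had 20.4 ± 4.41 CPM in Mfp2-/- and 154 ± 13.0 CPM in control retinas (SD, n = 4 each; log2 fold change -2.91, adjusted p = 6.8e-07 by edgeR). Mir17hg, the host of the miR-17 cluster, and Dleu2, the host of miR-15a and miR-16, had log2 fold changes of -2.09 (adjusted p = 0.00300) and -1.25 (adjusted p = 0.0151). H19, an imprinted RNA, was upregulated, with 11.96 ± 3.21 CPM in Mfp2-/- and 3.09 ± 1.68 CPM in control retinas (1.97, adjusted p = 0.00537). These 4 were also called without Mfp2-/- replicates 2 and 3, with log2 fold changes of -2.69 for Vax2os, -1.52 for Mir17hg, -0.80 for Dleu2 and 1.81 for H19, and Mir99ahg and Rmst were called upward as well. Meg3 and Neat1 are known in other cells as RNAs that p53 and cell stress regulate, or that act on p53. Of 15 tested p53 and stress genes, 9 were upregulated and 1, Mdm2 (log2 fold change -0.42), was downregulated, against 13.8% and 13.2% of all genes. The other 5 were not called. The upregulated genes were led by Cdkn1a, the p53 target p21 (log2 fold change 2.26), Atf3 (2.23), Gadd45b (1.56) and Hmox1 (2.80). In the fit without Mfp2-/- replicates 2 and 3, 7 of 15 were upregulated, these 4 included, and 0 downregulated. Of all genes in that fit, 13.3% were upregulated and 1667 of 13044 downregulated.

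Markers of cell types moved between the same libraries, in which 13.8% of all tested genes were upregulated and 13.2% downregulated. Cone markers had 2 of 14 up and 10 down (summed level 1118 to 1238 CPM in Mfp2-/- and 1985 to 2236 CPM in control retinas). Horizontal cell markers had 1 of 8 up and 2 down. Of ganglion cell markers 10 of 16 were upregulated and 0 downregulated (summed level 2969 to 3509 CPM in Mfp2-/- and 1967 to 2581 CPM in control retinas). Bipolar cell markers had 10 of 16 up and 2 down (2748 to 3623 CPM in Mfp2-/- and 2320 to 2749 CPM in controls), and amacrine markers 4 of 15 up and 0 down (2631 to 2747 CPM in Mfp2-/- and 2068 to 2172 CPM in controls). Müller cell markers had 10 of 16 up (6325 to 8183 CPM in Mfp2-/- and 4739 to 5403 CPM in controls), and microglial markers 13 of 13 up (440 to 577 CPM in Mfp2-/- and 83.2 to 106 CPM in controls). Of 6 lens markers 4 were up, over 164 to 3241 CPM in Mfp2-/- and 162 to 647 CPM in control retinas. Without Mfp2-/- replicates 2 and 3, 6 of 16 ganglion, 10 of 16 bipolar, 5 of 15 amacrine, 10 of 16 Müller, 13 of 14 microglial and 0 of 6 lens markers were upregulated, and all 20 rod markers were downregulated. In that fit 10 of 14 cone, 2 of 8 horizontal, 2 of 16 bipolar and 1 of 16 Müller markers were downregulated too. Upregulated were 2 of 14 cone and 2 of 8 horizontal markers. Over all genes, that fit called 13.3% upregulated and 1667 of 13044 downregulated. None of the markers of ganglion, bipolar or Müller cells was at 0 in every library. Their part in the levels of the 8 RNAs was not tested.

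Among 9328 genes with a mean of at least 10 CPM, those whose log2 CPM went most closely with a member over the 8 libraries were listed by Pearson r, as a description over libraries that share depth and composition. For Malat1 these were Thoc1 (r = 0.997), a subunit of the THO complex of mRNA export, and Kdm7a (0.992), a histone demethylase. For Kcnq1ot1 they were Ccdc88a (0.993) and Ppfia2 (0.992), and for Meg3 the cone and neuronal exchanger gene Slc24a2 (0.987) and Rgs11 (0.986), a regulator of G protein signaling in ON bipolar cells. Rian also had Slc24a2 (0.986), with Pcdh11x (0.982) next. Neat1 was followed most closely by Asxl3 (0.990) and Dzip1 (0.967), Snhg11 by D10Bwg1379e (0.980) and Fam135b (0.976), Miat by Wnk2 (0.970) and Pkd2 (0.958), and Mirg, more loosely, by Inha (0.923) and Vstm2a (0.909). None of these genes passed the test between Mfp2-/- and control retinas (adjusted p of 0.149 to 0.830 by edgeR). Ccdc88a, like Kcnq1ot1, had few reads in Mfp2-/- replicates 2 and 3, with 58 and 241, against 1458 and 1563 in replicates 1 and 4 and 273 to 1399 in control libraries.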

How the data were processed

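The retinal libraries were 3′ libraries (QuantSeq, primed with oligo-dT), sequenced as single-end reads of 50 bases. The values deposited by the authors are raw counts per gene symbol, not normalized in any way. The submitters' processing notes list FastQC 0.11.7, HISAT2, SAMtools 1.5, HTSeq 2.7.14 and the genome mm10. For HISAT2 no version is named, and neither the annotation nor the strand setting is given in the sources used here. The lines of HTSeq that name no gene were kept out of library sizes and tests, and reads outside genes made up 10.8% to 29.9% of all reads. A series-wide table held the same counts (0 different values over 21129 shared symbols) and was used as an alternative.

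Groups came from the sample labels. Counts were tested with edgeR 4.0.16 in R 4.3.3 (quasi-likelihood test, filterByExpr, TMM factors, Benjamini-Hochberg adjustment over 12516 genes, all 8 libraries, calls under 0.05), with DESeq2 1.42.0 and limma-voom 3.58.1 as alternatives, and the script was tested on simulated data. CPM used TMM factors, log2 CPM a prior count of 2, and log2 ratios a pseudocount of 0.5 reads. Ratios and shares were compared by two-sided exact permutation tests. No 2 libraries held identical counts. Nothing beyond 1 mouse per library is known of replicates or batches, and PCR copies without molecular identifiers are not independent, so error covers these libraries only. Other settings were scaling, filters, a replicate block, the share of reads outside genes (on the logit scale) as a covariate, and libraries left out. Replicate numbers occur in both groups, but the labels give them no meaning. The deviations of same-numbered libraries correlated at 0.08, -0.16, 0.25 and 0.21, and no block was used.

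The members and gene lists were chosen with earlier results of these data known, so no list was tested. Named genes were the 8 members, Hsd17b4 and up to 4 genes of smallest adjusted p per related list. The 2 genes most like each member were named too. Dlk1, Rtl1, Dio3, Xist, Gas5 and the genes on the opposite strand were named for their roles. Genes called without Mfp2-/- replicates 2 and 3, Mdm2, and Srsf10's values were named after their values were seen. Sequences and positions are from GENCODE models on GRCm38, the genome that mm10 names.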

Additional observations from a re-analysis of the deposited data

Results flagged for a closer look

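Of 36 groups of 4 values examined for a value far from the rest, 1 stood out, and chance marks about 1 group in 20. Meg3 per 1000 reads outside genes was 3.39 in control replicate 4, against 4.68 to 4.86 in the other controls, and the gap was 0.878 of the range of the group. Its level in CPM (3038) was not apart from that of control replicate 3 (2860). Without control replicate 4 the log2 difference between Mfp2-/- and control retinas on this scale was 0.69, against 0.81 with it.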

How the results depend on the processing

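Over all genes, 1728 were higher and 1649 lower in Mfp2-/- retinas. Total counts and upper-quartile factors moved the median of all genes to 0.12 and the split to 2406 against 1297 and 2369 against 1322, and with upper-quartile factors Neat1 passed (0.80, adjusted p = 0.0474). Without a filter 22095 genes were tested. The signs of Malat1, Neat1, Meg3, Miat, Mirg and Snhg11 held under every scaling, filter and tool run. Rian turned to -0.0875 under limma-voom and to -0.0354 with the replicate block, which called 1355 genes higher and 1490 lower and 0 of 8 RNAs. Mfp2-/- libraries correlated best with the control of the same number only for replicates 3 and 4. With the share of reads outside genes as a covariate, Neat1 (0.96), Meg3 (0.67), Miat (0.72), Rian (0.67) and Snhg11 (0.75) passed and Kcnq1ot1 turned to 0.47. Without Mfp2-/- replicates 2 and 3, Neat1 (1.12), Meg3 (0.86), Miat (0.82), Rian (0.92) and Snhg11 (0.94) passed, and Malat1 (0.17), Kcnq1ot1 (0.70) and the share itself (2.74 percentage points) turned. Without control replicate 3 as well, chosen after seeing the data, Neat1 (1.04), Meg3 (0.77), Miat (0.74), Rian (0.78), Mirg (0.75) and Snhg11 (0.88) passed, with Malat1 at 0.10 and Kcnq1ot1 at 0.35. The cause was not tested.

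With 1 library left out at a time, genes higher numbered 1201 to 1765 and genes lower 1248 to 1778. Log2 fold changes ranged over -0.74 to -0.16 for Malat1, 0.41 to 0.89 for Neat1 (adjusted p of 0.0300 to 0.241), 0.0881 to 0.57 for Meg3, -0.89 to 0.17 for Kcnq1ot1, 0.17 to 0.61 for Miat, -0.14 to 0.53 for Rian, 0.14 to 0.49 for Mirg and 0.20 to 0.65 for Snhg11. Rian was negative without Mfp2-/- replicate 1 (-0.14) or 4 (-0.05), and Kcnq1ot1 positive without Mfp2-/- replicate 2 (0.17) or 3 (0.14) or control replicate 1 (0.16). Per 1000 reads outside genes, the log2 differences ranged over -0.0687 to 0.0655 for Malat1 (-0.0687, -0.0185 and -0.0564 without Mfp2-/- replicate 4 and control replicates 2 and 4), 0.69 to 0.86 for Meg3, 0.86 to 1.16 for Miat (p of 0.0571 without any 1 control, exact permutation test), 0.70 to 1.30 for Mirg and -0.95 to 0.20 for Kcnq1ot1 (0.20 without Mfp2-/- replicate 2). Kcnq1ot1 stood at 1.03 without Mfp2-/- replicates 2 and 3. Per read in genes instead, the differences were -0.52 for Malat1, 0.69 for Neat1, 0.28 for Meg3, 0.47 for Miat, -0.0114 for Rian and 0.38 for Snhg11, and none of those of Neat1, Meg3, Miat and Snhg11 passed. Ratios to Meg3 turned for Mirg without Mfp2-/- replicate 2 (-0.0186; 0.44 without control replicate 3), for Snhg11 without control replicate 1 (-0.0022), and without Mfp2-/- replicates 2 and 3 for Rian (0.0792), Mirg (-0.22) and Miat (-0.0397). Neat1, Miat, Rian and Mirg rest on 32 to 356 reads per library, and 4 libraries in each group allow no exact p below 0.0286.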

Other observations

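Xist, the nuclear RNA of the inactive X chromosome and no member of the set described, had 2955, 305, 1427 and 5 reads in Mfp2-/- replicates 1 to 4, against 2602, 2095, 16 and 7 reads in control replicates 1 to 4. It was high in 3 Mfp2-/- and 2 control libraries. Among the high libraries, Mfp2-/- replicates 2 and 3 had 154 and 476 CPM, against 1038 CPM in Mfp2-/- replicate 1 and 940 and 941 CPM in the controls. The spliced host RNA Gas5 had 246, 213, 201 and 274 CPM in Mfp2-/- replicates 1 to 4, against 254, 226, 216 and 232 CPM in controls 1 to 4. Its values in Mfp2-/- replicates 2 and 3 lay below every control, though close to the lowest of them (216 CPM).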
